A study of Mus musculus with 6 samples.

Results

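Intergenic lincRNA probes are the spots of this mouse array that carry no gene symbol and are named only by the genomic interval of an unnamed long intergenic non-coding transcript. They were taken as all non-control probes whose name on the array is a chromosome with start and end coordinates, leaving out chromosomes X and Y. This gave 15599 probes in 3388 regions, of 55627 probes kept on the array. Each different interval is counted as a region, and some intervals lie inside others, so counts of regions are not counts of separate loci. The 153 regions with 576 probes on X were not used, and no name on the array began with the word lincRNA itself. Of the 3388 regions, 1042 had probes for both strands, 1188 for the forward and 1155 for the reverse strand only, and 3 regions with 13 probes gave no strand in their name. A region had a median of 3 probes and at most 20, the median region spanned 7451 bp, and every probe was 60 bases long. The comparison set was 31644 probes with 23023 gene symbols.

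Long intergenic non-coding RNAs are transcripts outside protein-coding genes that are not translated, and many stay in the nucleus at low abundance. AGO2 is the Argonaute protein that carries a microRNA and, guided by it, binds target RNAs, mostly messenger RNAs in the cytoplasm. Dicer cuts microRNA precursors into mature microRNAs, so cells without Dicer lack most of the guides that AGO2 uses. Malat1 and Neat1, 2 of the most abundant nuclear long non-coding RNAs, serve as reference points because several regions described here lie near their probes or hold them.

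The study compared macrophages grown from bone marrow of mice with working Dicer (LysM-Cre/Dicer wt/wt/Apoe–/–, here Dicer WT) with those of mice whose Dicer is deleted (LysM-Cre/Dicer flox/flox/Apoe–/–, here Dicer KO). All mice lacked Apoe and carried Cre under the lysozyme M promoter, which acts in myeloid cells, and were 6 to 8 weeks old and male per the labels. Cells were cultured for 7 days in medium with L929-conditioned supernatant. For each genotype, 1 array held RNA of the cleared lysate (input), 1 held RNA precipitated for 7 hours with a monoclonal antibody to AGO2 (AGO2-RIP) and 1 held RNA precipitated with IgG (IgG-RIP, the control for unspecific binding). With 1 array in each of the 6 groups there was no replicate check within a group, and the number of arrays limits the precision of every value. The sources used here do not say whether the fractions came from separate cultures.

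Values are log2 signals relative to the 75th percentile of the array, so that 0 is that percentile and 1 unit is a 2-fold difference. Because cDNA mass was the same on every array, all comparisons are of relative abundance. Levels of different probes are not abundances of different transcripts, since probes differ in how well they bind. Labelling from random primers does not mark the strand, so a forward and a reverse transcript of a region cannot be told apart.

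The sequences of 8 probes that carry the main patterns are shown 5′ to 3′, as the array lists them, with capitals at the cutting sites of Alu I (AGCT) and Rsa I (GTAC), the enzymes that cut the cDNA before labelling. The first 3 lie within 50 kb of a probe of Malat1 or Neat1. The next 3 were the regions highest in both precipitates over input. The last pair had a high and a low ratio of AGO2-RIP to IgG-RIP. Coordinates are those of the array on mm9.
chr19:5801802-5802597 (reverse): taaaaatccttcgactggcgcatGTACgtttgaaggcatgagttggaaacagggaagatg
chr19:5795690-5797464 (forward): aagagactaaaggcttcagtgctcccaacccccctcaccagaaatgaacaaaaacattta
chr19:5834117-5835940 (reverse): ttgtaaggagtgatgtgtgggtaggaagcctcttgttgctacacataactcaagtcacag
chr17:39960567-39992817 (reverse): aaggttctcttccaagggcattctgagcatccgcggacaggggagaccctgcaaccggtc
chr11:76400207-76434732 (forward): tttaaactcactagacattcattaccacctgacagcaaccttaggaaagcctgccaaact
chr10:66559716-66647841 (reverse): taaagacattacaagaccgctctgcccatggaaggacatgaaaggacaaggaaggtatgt
chr5:149947200-149979950 (forward): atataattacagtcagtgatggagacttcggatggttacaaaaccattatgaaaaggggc
chr1:87343550-87362900 (reverse): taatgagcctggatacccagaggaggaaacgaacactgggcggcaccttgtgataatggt

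A further 3 probes are shown because part of each also occurs in the probe of a ribosomal protein gene elsewhere in the genome, in the opposite orientation. Capitals mark that shared run, of 41 bases with Rps2 for the first pair and of 27 bases with Rps15a for the third.
chr17:26679595-26688270 (reverse): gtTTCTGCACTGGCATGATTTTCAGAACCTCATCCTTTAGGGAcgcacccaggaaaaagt
chr2:143963320-143984245 (forward): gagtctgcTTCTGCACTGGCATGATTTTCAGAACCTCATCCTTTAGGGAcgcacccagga
chr2:151992806-152025456 (forward): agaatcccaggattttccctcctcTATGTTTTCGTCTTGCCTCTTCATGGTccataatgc

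Across the arrays, no spot was saturated, median signals ran from 7.99 to 15.4 units and negative controls had medians of 3.89 to 4.51 units. Macrophage markers were above background in the input arrays (7 of 8 in WT, all 8 in KO), whereas 0 of 4 B cell and 0 of 2 dendritic cell markers were, and 2 of 6 neutrophil markers (S100a8 and S100a9) were above background in both inputs. Of the other lists, 1 of 4 T cell markers in WT and 2 of 4 in KO, 1 of 3 erythroid markers in each and 0 of 4 and 1 of 4 fibroblast markers were above background. Dicer1 read 0.22, 0.93 and 0.18 in the WT input, AGO2-RIP and IgG-RIP and -0.55, 0.94 and -2.24 in the KO fractions. Xist, the transcript of the inactive X, was above background on 3 WT and 0 KO arrays, and the Y-linked Ddx3y and Eif2s3y on 0 WT and 3 KO arrays. The WT arrays thus go against their label of male, and KO and WT also lay on different rows of the slide, so genotype cannot be told apart from sex or slide row in any comparison of KO with WT.

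More of the intergenic probes gave a signal in the precipitates than in input. In WT, 23.7% of the 15599 probes were well above background in input, 34.3% after AGO2 precipitation and 35.8% after IgG precipitation. In KO, these shares were 27.6%, 38.8% and 35.1%. Both inputs were therefore the lowest of the 3 fractions, and the IgG control was as high as AGO2-RIP in WT. In such bulk samples, fewer cells of a type and less RNA per cell cannot be told apart. Probes with gene symbols were above background more often on every array, at 44.1%, 49.7% and 45.3% in WT and 47.4%, 50.4% and 45.6% in KO, and differed less between fractions. The 1356 gene symbol probes for curated non-coding transcripts (NR_ accessions) were close to the intergenic probes, with 22.8% in WT input and 29.1% in WT IgG-RIP.

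**Figure D1:**
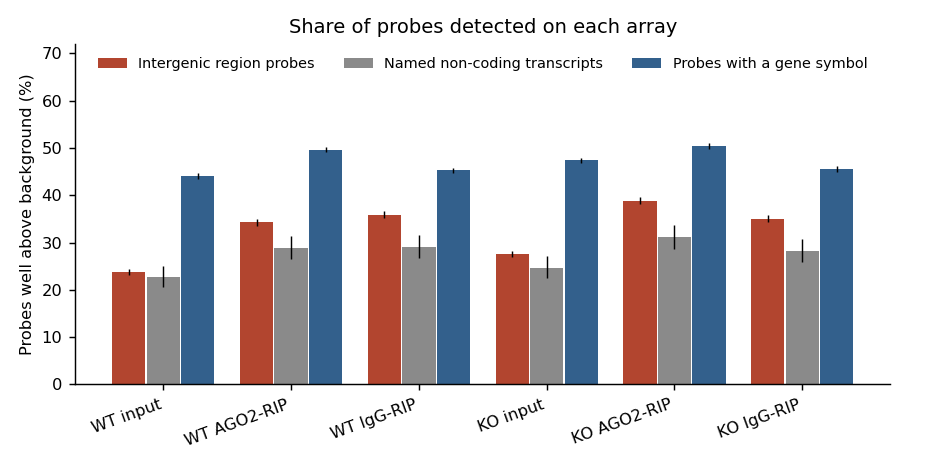
The bars give the percentage of probes well above background on each of the 6 arrays, for intergenic region probes, named non-coding transcripts and all probes with a gene symbol. Error bars are exact 95% binomial intervals over probes, which cover counting error only. Intergenic probes go from 23.7% in WT input to 35.8% in WT IgG-RIP, against 44.1% and 45.3% for gene symbol probes.

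Of the intergenic probes, 2885 (18.5%) were above background on all 6 arrays and 7799 (50%) on none, against 34.3% and 40.7% of gene symbol probes. These 2885 probes came from 1267 regions, and 850 regions had no probe above background anywhere. All 4 precipitates but neither input showed a signal for 624 intergenic probes (4.00%) and for 551 gene symbol probes (1.74%). The opposite pattern, both inputs and no precipitate, held for 44 (0.282%) and 128 (0.404%).

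The label of intergenic held only in part. The spans of 681 regions, with 3948 probes (25.3%), contained a probe with a gene symbol, which was a protein-coding gene in 241 regions and a long non-coding gene with no protein-coding one in 275. In addition, 166 intergenic probes (1.06%) shared a run of at least 20 bases with a probe over 1 Mb away, 132 of them with a probe that has a gene symbol and 108 in the opposite orientation. Such sharing was more common among bright probes, with 7 of the 25 and 14 of the 50 highest mean levels.

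The first question of the design is which RNAs AGO2 antibody brought down beyond IgG. Intergenic probes were shifted towards IgG-RIP in WT, with a median AGO2-RIP minus IgG-RIP difference of -0.66 over 4451 measured probes (above background on both arrays), whereas gene symbol probes had a median of 0.03. In WT, 452 intergenic probes (10.2%) were at least 2-fold higher in AGO2-RIP, where the share over all probes was 20.1%, and 1507 (33.9%) were at least 2-fold lower, where it was 22.5%. In KO the median was -0.29 over 4774 probes against -0.10 for gene symbols, with 359 probes (7.52%) higher against 10.8% of all probes and 636 (13.3%) lower against 10.9%. Named non-coding transcripts had medians of -0.70 and -0.35, so the gap to gene symbol probes was not particular to unnamed regions.

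Among intergenic probes past 2-fold, 23.1% were on the AGO2 side in WT, and 38.2% with array median scaling, 12.3% with the 75th percentile of probes detected on all arrays and 39.4% with normexp background correction. In KO, 36.1% were, and 50.4% with normexp. Probes above background on only 1 of the 2 WT arrays have a bound instead of a difference. Of these, 903 were seen only in AGO2-RIP, with 231 at least 2-fold higher, and 1141 only in IgG-RIP, with 914 at least 2-fold higher there. Over all probes, 3990 were seen only in AGO2-RIP, with 1515 at least 2-fold higher, and 2792 only in IgG-RIP, with 2156. The lowest signal above background was -2.62 on the AGO2-RIP and -2.03 on the IgG-RIP array, so the bounds of the 2 sides are not alike.

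Against this shift, 112 probes of 62 regions had an AGO2-RIP signal at least 2-fold above that of IgG-RIP in both genotypes, 3.88% of the 2885 probes detected on all arrays, where the share over all such probes was 7.19%. They lay nearer to gene symbol probes than intergenic probes in general, which was not particular to them, since the probes lower in AGO2-RIP did so too. Of these 112 probes, 59.8% were within 10 kb of a gene symbol probe, at a median distance of 3.93 kb, against 39.3% and 15.6 kb for the 2885, and their median WT input level was 1.98 against 0.50. Those with a neighbour within 10 kb had 22 different neighbouring gene symbol probes detected on all arrays, of which 7 (31.8%) were themselves at least 2-fold higher in both genotypes, against 8.85% of gene symbol probes.

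The highest ratio belonged to chr2:60581618-60589968 (forward strand), whose probe lies 0.3 kb from a probe of Rbms1, an RNA-binding protein gene. The intergenic probe read 2.58, 5.98 and 1.20 in WT input, AGO2-RIP and IgG-RIP and 2.68, 5.00 and 1.70 in the KO fractions. Both AGO2-RIP values stood above the other 4. The AGO2-RIP minus IgG-RIP differences were 4.78 in WT and 3.30 in KO (limma estimate 4.04 ± 0.52 SE, adjusted p = 0.096), and those of the Rbms1 probe were 3.63 and 2.18.

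Next came chr5:149947200-149979950 (forward), whose closest gene symbol probe, 5730422E09Rik, is 26.1 kb away and was above background on 1 array. The region's probe read 3.12, 6.00 and 1.86 in the WT fractions and 3.52, 5.89 and 2.11 in the KO fractions. The ratio was thus nearly as large without Dicer, at 3.78 against 4.13 (limma estimate 3.96 ± 0.41 SE, adjusted p = 0.094).

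The other 3 regions at this end each had their probe within 0.3 kb of a gene symbol probe. These were chr17:33425193-33449090 beside the zinc finger gene Zfp955b (estimate 3.66), chr4:116791819-116798263 beside Btbd19 (3.62) and chr6:54595084-54595833 beside Plekha8 (3.57). The gene probes' own differences in WT and KO were 3.63 and 4.37 for Zfp955b, 5.23 and 3.74 for Btbd19, which was above background on 5 of 6 arrays, and 4.15 and 1.72 for Plekha8. All 5 regions stayed at least 2-fold higher in both genotypes under each of the 4 other scalings tried.

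In the other direction, 65 probes of 55 regions were at least 2-fold below IgG-RIP in AGO2-RIP in both genotypes, 2.25% against 1.90% of all probes. Of these 65, 44.6% were within 10 kb of a gene symbol probe, at a median distance of 11.5 kb. A gene symbol probe in the span or within 1 kb was found for 47.7% of the 65, 46.4% of the 112 higher probes and 32.2% of the 2885. The lowest was chr1:87343550-87362900 (reverse), with no gene symbol probe within 129.6 kb. Its probe read -1.58, -2.23 and 1.34 in the WT input, AGO2-RIP and IgG-RIP and -1.86, -1.70 and 2.26 in KO. Only the 2 IgG values were high. The estimate was -3.76 ± 0.47 (SE, limma adjusted p = 0.096), and against input the IgG-RIP rose by 3.52 ± 0.47 (adjusted p = 0.024).

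The next 4 at this end lay near Snhg17, a host gene of small nucleolar RNAs (-2.62), near Anxa5, an annexin gene (-2.33), near Cdyl2 (-2.22) and near Prss27 (-2.22). The Snhg17 and Prss27 probes had differences between -0.62 and 1.26, the Anxa5 probe 1.01 and -0.50. None of the 12 neighbouring gene symbol probes detected on all arrays for these 65 probes was lower by 2-fold in both genotypes, against 1.86% of gene symbol probes. At so low a share, 0 of 12 does not tell these neighbours from other gene symbol probes.

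No intergenic probe passed limma's adjusted p of 0.05 for AGO2-RIP against IgG-RIP, of 6204 probes above background on at least 2 arrays, and neither did any other probe (0.0%). In that fit both genotypes serve as the replicates of a fraction. The difference between genotypes shared by all fractions is a fitted term, and the error is how far fraction differences vary between genotypes. A fraction difference that is unlike in WT and KO therefore counts as error. In the same limma fit, 995 of the 6204 intergenic probes had an unadjusted p under 0.05, as did 4793 of all 26868 probes tested. The lowest adjusted p was 0.0938. When the fit was confined to probes above background on all 6 arrays, 65 intergenic probes rose and 11 fell, against 4.01% and 0.369% of all probes.

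The next comparisons set each precipitate against input. Over input, the IgG control had a median difference of 0.29 in WT and 0.28 in KO for intergenic probes (3195 and 3686 measured), but of -0.60 and -0.39 for gene symbol probes. In WT, 967 intergenic probes (30.3%) were at least 2-fold higher in IgG-RIP, against 17.9% of all probes, and 739 (23.1%) were lower, against 37.5%. In KO, 1008 (27.3%) were higher, against 17.0%, and 644 (17.5%) lower, against 29.3%. A further 2397 intergenic probes in WT were above background in IgG-RIP only, 1307 of them at least 2-fold higher, and 503 in input only, 257 of them at least 2-fold higher there. Over all probes, 5694 were above background in IgG-RIP only, with 2907 at least 2-fold higher, and 2886 in input only, with 1715.

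The gap between intergenic and gene symbol probes kept its direction under the 4 other scalings, but the position of 0 did not. The median over all measured probes in WT was -0.48, -1.11 with array median scaling and 0.26 with the 75th percentile of probes detected on all arrays. The intergenic median moved with it, to -0.34 and 1.04. Among intergenic probes past 2-fold, 56.7% were higher in IgG-RIP in WT, and 33.2% and 78.8% under these scalings. In KO the share was 61.0%, and 35.4% and 81.8% under them and 46.4% with normexp. Named non-coding transcripts had medians of 0.09 and 0.28, against which the intergenic gap was 0.21 in WT and 0.00 in KO.

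**Figure D2:**
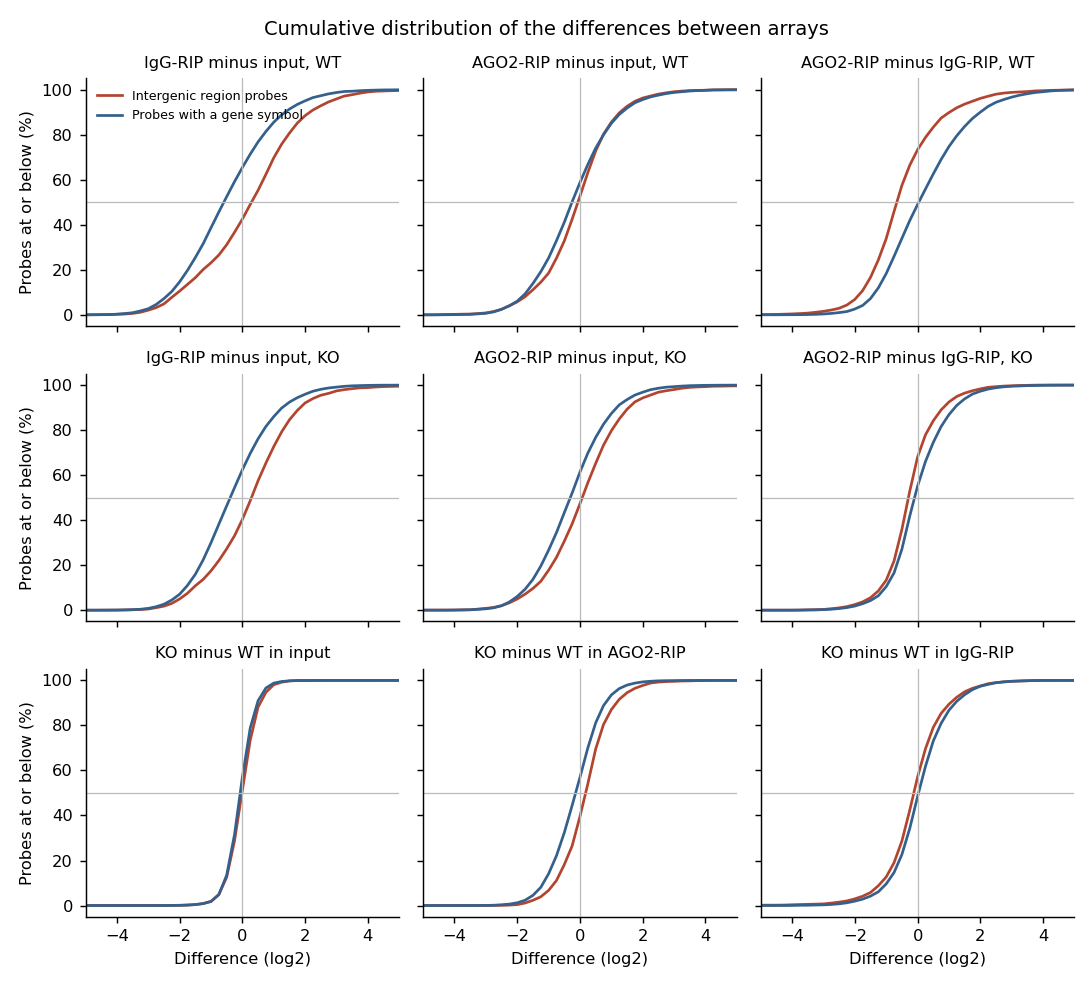
Each panel gives the cumulative percentage of probes at or below a difference (log2) between 2 arrays, for intergenic region probes and probes with a gene symbol measured on both arrays. The curves are furthest apart for IgG-RIP minus input in WT (medians 0.29 and -0.60) and nearly coincide for KO minus WT in input (medians -0.01 and -0.07).

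In limma's fit over both genotypes, 1280 intergenic probes rose in IgG-RIP over input and 442 fell, of 6204 tested (20.6% and 7.12%, against 12.2% and 12.9% of all probes). Of the 1280, 322 were above background on all 6 arrays, so most of these calls include at least 1 array without a signal above background. A fit to probes detected on all arrays called 629 higher and 525 lower, against 12.8% and 29.4% of all probes. These counts depended on single arrays. Without the WT input or without the KO input array 0 intergenic probes passed in either direction (1698 and 1595 had an unadjusted p under 0.05), without the WT IgG-RIP array 471 rose and 112 fell, without the KO IgG-RIP array 1615 rose and 599 fell, and without either AGO2-RIP array 822 rose and 155 fell.

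Over input, the AGO2-RIP had a smaller shift, with intergenic medians of -0.06 in WT (3412 probes) and 0.07 in KO (3964), against -0.26 and -0.31 for gene symbol probes. In WT, 492 (14.4%) were at least 2-fold higher, against 14.4% of all probes, and 633 (18.6%) lower, against 26.7%. In KO, 805 (20.3%) were higher, against 14.3%, and 704 (17.8%) lower, against 27.1%. The share on the higher side was 43.7% in WT, and 26.7% with array median scaling and 65.2% with the 75th percentile of probes detected on all arrays. In KO it was 53.3%, and 24.4% and 80.2%.

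limma called 281 intergenic probes higher and 100 lower in AGO2-RIP than in input, against 2.78% and 2.95% of all probes. Of these, 39 and 80 were above background on all 6 arrays. A fit to such probes alone called 270 intergenic probes higher and 384 lower, against 8.06% and 20.1% of all probes. Leaving out either input or either AGO2-RIP array left 0 calls (between 937 and 1694 intergenic probes had an unadjusted p under 0.05), and leaving out either IgG-RIP array gave 893 higher and 343 lower.

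The probes around Malat1 and Neat1 were higher in both precipitates than in input. Within 50 kb of a probe of either gene lay 27 intergenic probes of 6 regions, 22 of them above background on all 6 arrays. In WT, all 22 were higher in IgG-RIP than in input, by 1.51 to 4.75 with a median of 2.99, and in KO by 0.10 to 3.49 with a median of 2.54. All 22 were also higher in AGO2-RIP than in input, with medians of 1.66 and 1.94. AGO2-RIP was below IgG-RIP for all 22 in WT (median -1.38, with 18 at least 2-fold lower) but for 17 of 22 in KO (median -0.24). Under the other scalings these directions held for all 22, except for 1 probe in KO IgG-RIP over input with array median scaling and with quantile normalization, and 15 to 17 probes were below IgG-RIP in KO.

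Within this group the probe of chr19:5801802-5802597 (reverse), 6.4 kb from the Malat1 probe, had the highest mean level of all intergenic probes. It read 7.49, 8.72 and 9.86 in WT input, AGO2-RIP and IgG-RIP and 8.02, 9.49 and 9.80 in KO, with input lowest and IgG-RIP highest in both. The difference passed the test, with a limma estimate for IgG-RIP over input of 2.07 ± 0.43 (SE, adjusted p = 0.032). In chr19:5795690-5797464 (forward), whose span holds the Malat1 probe, the same order was steeper, with 5.58, 7.72 and 9.36 in WT and 6.46, 8.91 and 9.38 in KO (estimate 3.35 ± 0.47 SE, adjusted p = 0.024). The Malat1 probe itself read -1.74, 0.74 and 2.37 in WT and -1.93, 1.84 and 1.90 in KO, and so had the same order at a lower signal.

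The region with the widest contrast was chr19:5834117-5835940 (reverse), 7.6 to 8.0 kb from the Neat1 probe and with no gene symbol probe in its span. One of its probes read -1.97 in WT input, which is not well above background, but 4.96 in AGO2-RIP and 7.01 in IgG-RIP. In KO it read -1.53, 5.34 and 5.18. The WT IgG-RIP signal was at least 495-fold above input, computed against the lowest signal that counts as above background on the input array. The other 2 probes of the region were not above background in either input, and were at least 85.2-fold and 192-fold higher in WT IgG-RIP and at least 34.8-fold and 75-fold higher in KO IgG-RIP. The Neat1 probe itself went from 1.96 to 4.37 in WT and from 2.71 to 4.37 in KO. Whether the intergenic probes near Malat1 and Neat1 report the transcripts of these genes themselves was not tested.

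**Figure D3:**
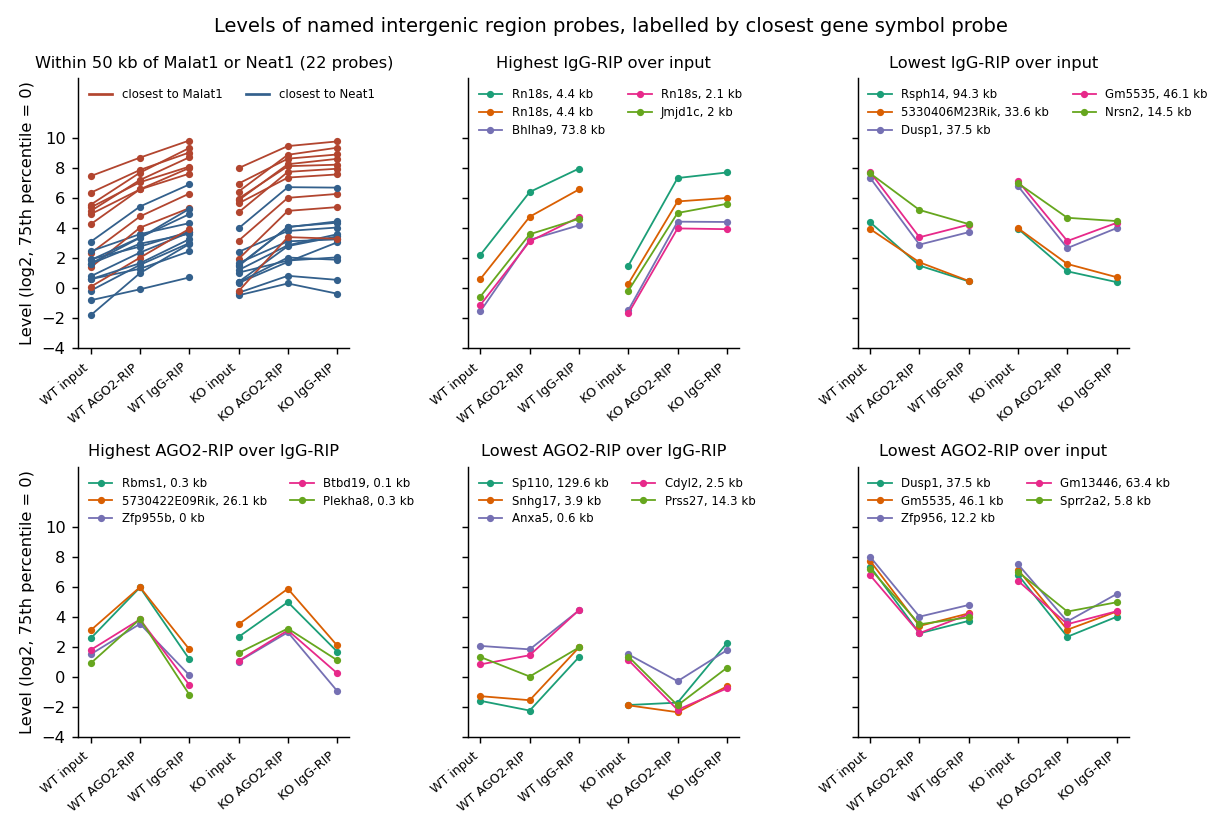
Points give the level (log2, 75th percentile of the array set to 0) of single intergenic region probes in input, AGO2-RIP and IgG-RIP, joined within a genotype. The 22 probes near Malat1 and Neat1 and the 5 highest regions are higher in the precipitates than in input, the lowest ones are lower, and the 5 highest in AGO2-RIP over IgG-RIP peak in AGO2-RIP in both genotypes.

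The highest mean ratios of AGO2-RIP to input were sought among regions with a probe above background on all 6 arrays. The 5 highest belonged to 3 regions whose closest gene symbol probe was that of Rn18s, the 18S ribosomal RNA gene, and to 2 other regions. The 3 regions are 1 locus, since chr17:39979941-39981793 and chr17:39982023-39983277 lie inside chr17:39960567-39992817. The probe of chr17:39960567-39992817 (reverse), 4.4 kb from the Rn18s probe, read 2.24, 6.43 and 7.99 in the WT fractions and 1.51, 7.36 and 7.73 in the KO fractions. Every precipitate stood far above its own input. The limma estimates were 5.99 ± 0.54 (SE, adjusted p = 0.024) for IgG-RIP and 5.02 ± 0.54 (adjusted p = 0.047) for AGO2-RIP.

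Of 20 intergenic probes whose closest gene symbol was Rn18s, in 5 regions, 18 were above background on all 6 arrays, and 12 of these were at least 2-fold higher in WT IgG-RIP than in input (median 3.81) and 11 in KO (median 2.95). Over all measured probes, 17.9% in WT and 17.0% in KO were higher. The Rn18s group was formed after its values were seen. The Rn18s probe went the other way, with IgG-RIP minus input differences of -1.80 in WT and -0.83 in KO. Whether the intergenic probes of this group and the Rn18s probe report parts of 1 transcript was not tested.

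Away from Rn18s, chr11:76400207-76434732 (forward) read -1.52, 3.24 and 4.21 in WT and -1.45, 4.45 and 4.43 in KO. Its closest gene symbol probe, Bhlha9, is 73.8 kb away, and the estimate for IgG-RIP over input was 5.81 ± 0.48 (SE, limma adjusted p = 0.024). Similarly, chr10:66559716-66647841 (reverse), 2 kb from a probe of the histone demethylase family gene Jmjd1c, read -0.54, 3.61 and 4.64 in WT and -0.16, 5.03 and 5.64 in KO. The Jmjd1c probe differed far less, by 0.81 and 1.02 for IgG-RIP over input.

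At least 2-fold higher in IgG-RIP over input in both genotypes were 555 probes of 402 regions (19.2% of 2885, against 11.4% of all probes), and 447 probes of 199 regions (15.5%, against 25.2%) were lower. For AGO2-RIP over input, 274 probes of 181 regions (9.50%, against 7.80%) were higher and 402 probes of 191 regions (13.9%, against 21.0%) lower. The higher probes had low input signals (median WT input level -0.49 for IgG-RIP), and the lower ones high input signals (3.89). This contrast is in part built into the sets. They were chosen by a difference from input, and a dim probe cannot fall 2-fold and stay above background. Of the 447 probes lower in IgG-RIP, 15.4% shared a run with a distant probe, as did 11.7% of the 402 lower in AGO2-RIP, against 4.40% of the 2885.

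The lowest AGO2-RIP over input ratios were those of probes that share such runs. The probe of chr17:26679595-26688270 (reverse), with 41 bases of Rps2 (a protein of the small ribosomal subunit), read 7.37, 2.92 and 3.75 in WT and 6.82, 2.69 and 4.02 in KO. For chr2:143963320-143984245 (forward), with the same run, the values were 7.75, 3.41 and 4.25 in WT and 7.16, 3.16 and 4.37 in KO. These 2 regions lie on different chromosomes, and in both of them the 2 inputs were the highest of the 6 values. The limma estimates were -4.29 ± 0.43 and -4.17 ± 0.42 (SE, both adjusted p = 0.047). The next 3 regions, at -3.90, -3.37 and -3.18, also shared runs, of 31, 24 and 24 bases, with distant probes.

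With 27 bases of Rps15a, another protein of the small subunit, the probe of chr2:151992806-152025456 (forward) was among the 6 brightest and read 9.89, 7.6 and 7.04 in WT and 9.39, 7.29 and 8.02 in KO. In all, 17 intergenic probes shared a run with a ribosomal protein probe, all above background on every array. Of these, 17 were at least 2-fold lower in IgG-RIP than in input in WT (median -2.48) and 16 in KO (median -1.73). In AGO2-RIP 15 were lower in each genotype (medians -2.30 and -2.10). Over all measured probes, 37.5% in WT and 29.3% in KO were lower in IgG-RIP, and 26.7% and 27.1% in AGO2-RIP. Whether the 17 probes report the intergenic transcript or the ribosomal protein mRNA was not tested.

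Bright probes were low in IgG-RIP with and without a shared run. Runs were sought only in the sequences of other probes on the array. A match to a part of a transcript that no probe covers would be missed, so probes without a shared run may still match elsewhere. Among the 253 intergenic probes with a mean level of at least 4, the 49 that shared a run had a median IgG-RIP minus input difference of -2.23 in WT, and those that did not had -1.53. The 2 lowest regions for IgG-RIP over input, chr10:74325583-74396665 (reverse, estimate -3.74) and chr6:31017987-31174287 (forward, -3.36), shared none. The probe of chr10:74325583-74396665 read 4.41, 1.52 and 0.47 in WT and 3.98, 1.14 and 0.42 in KO, with both inputs highest.

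The ratio of IgG-RIP to input was lower at high signal levels and higher at high GC content in both kinds of probes. From the dimmest to the brightest of 6 level classes, the intergenic median in WT was 0.41, 0.71, 0.50, 0.19, -0.43 and -1.68, and that of gene symbol probes 0.17, -0.01, -0.53, -0.73, -0.96 and -1.15. In the brightest class, with 253 intergenic probes, intergenic probes were thus below gene symbol probes, also in KO (-1.17 against -0.72). By GC content, intergenic medians in WT went from -0.48 under 35% to 0.57 at 50% and over, and gene symbol medians from -0.77 to -0.19. Intergenic probes had a median GC content of 45% and gene symbol probes of 41.7%, and the intergenic median was the higher one in each GC class.

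**Figure D4:**
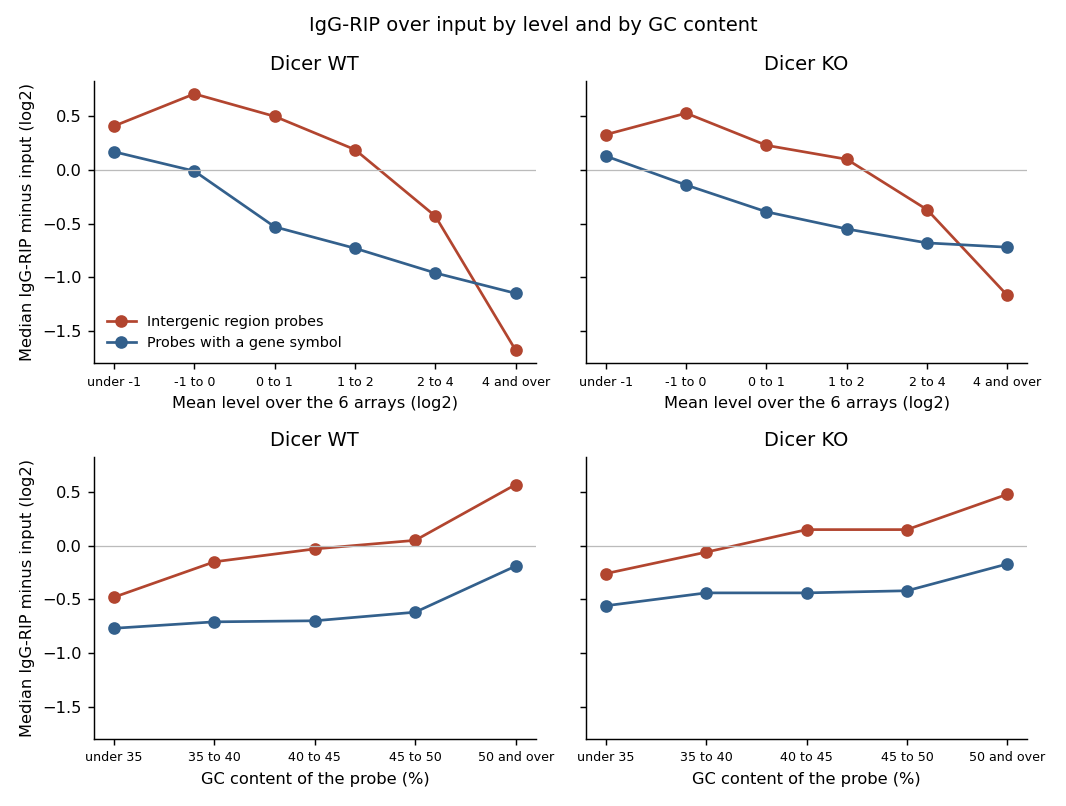
Points are median IgG-RIP minus input differences (log2) of intergenic region probes and gene symbol probes, by mean level over the 6 arrays for probes detected on all of them and by GC content of the probe for measured probes. In WT, intergenic medians lie above gene symbol medians in all classes but the brightest, where they are -1.68 and -1.15.

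The sequence of the probe held few other marks. AGCT, which reads the same on both strands, as GTAC does, occurred in 26.7% of intergenic and 24.8% of all probes, and GTAC in 11.8% and 12.9%. The polyadenylation signal AATAAA, searched on the listed strand, was in 3.92% of intergenic, 13.5% of gene symbol and 10.1% of all probes. Intergenic probes with AGCT had a median IgG-RIP minus input difference in WT of 0.34 and those without it of 0.28.

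Between genotypes, input differed little. The median KO minus WT difference of intergenic probes in input was -0.01 (3473 probes), with 66 probes (1.90%) at least 2-fold higher, against 1.25% of all probes, and 64 (1.84%) lower, against 1.75%. The precipitates differed more. In AGO2-RIP the intergenic median was 0.18 (4794 probes) and that of gene symbols -0.14, with 622 (13.0%) higher, against 7.97%, and 323 (6.74%) lower, against 11.4%. In IgG-RIP the medians were -0.12 (4513 probes) and 0.03, with 477 (10.6%) higher, against 11.7%, and 573 (12.7%) lower, against 9.90%.

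On the KO side, 65.8% of the intergenic probes past 2-fold in AGO2-RIP lay, and 45.9% with array median scaling, 84.4% with the 75th percentile of probes detected on all arrays and 55.6% with normexp. In input the share was 50.8%, and 66.9% with the 75th percentile of probes detected on all arrays. Named non-coding transcripts had the same median in AGO2-RIP, 0.18.

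Of 2885 intergenic probes detected on all arrays, 2 probes of 1 region were at least 2-fold higher in KO in all 3 fractions (0.0693%, against 0.0615% of all probes), and 1 was lower (0.0347%, against 0.129%). In the higher region, chr11:95627874-95640824 (reverse), the brighter probe lies 3.7 kb from a probe of Zfp652, a zinc finger gene. That brighter probe read 2.44, 2.41 and 1.57 in WT and 3.52, 3.41 and 3.76 in KO. Every KO value was above every WT value. The lower one, in chr3:36280098-36347798 (reverse) beside Anxa5, read -0.23, -0.25 and 0.85 in WT and -1.29, -1.33 and -0.24 in KO, with differences of -1.07, -1.08 and -1.09, whereas the Anxa5 probe differed by -0.09, -1.16 and 0.35. limma called 0 of 6204 intergenic probes between genotypes, and 0.0% of all probes. In that fit 313 of the intergenic probes had an unadjusted p under 0.05, as did 1180 of all 26868 probes tested.

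A dependence of AGO2 association on Dicer would show as a higher AGO2-RIP to IgG-RIP ratio in WT than in KO. Over 3959 intergenic probes measured on all 4 precipitate arrays, the median of WT minus KO was -0.32, against 0.19 for gene symbol probes. At least 2-fold higher in WT were 556 probes (14%, against 20.7% of all probes), and 984 (24.9%, against 17.2%) were lower. With input as the reference (3232 probes), the median was -0.06 against 0.12, with 309 probes (9.56%, against 12.6%) higher and 344 (10.6%, against 7.48%) lower. This quantity has 1 array in each of its terms and no test. Its position relative to 0 depended on the scaling. Over probes measured within each genotype, the intergenic median of AGO2-RIP over IgG-RIP was -0.66 in WT and -0.29 in KO. With array median scaling these medians were -0.33 and -0.31, and with normexp -0.34 and -0.18. They were -1.03 and -0.30 with the 75th percentile of probes detected on all arrays, and -0.64 and -0.31 with quantile normalization.

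Of the 5 regions with the highest values, 1 had a positive AGO2-RIP to IgG-RIP difference in both genotypes, chr13:62152594-62153041 (reverse), 1.5 kb from Gm3325. It read 0.77, 3.18 and -0.56 in WT and 0.57, 2.35 and 2.09 in KO. AGO2-RIP was high in both genotypes and IgG-RIP in KO alone, giving a WT minus KO difference of 3.47. The Gm3325 probe had ratios of 3.48 in WT and 1.15 in KO.

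Probes of the same transcript unit gave related values. In 332 region strands with at least 3 probes above background on all 6 arrays, all probes had the same sign of IgG-RIP minus input in WT in 204 (61.4%). The standard deviation between probes of a region was 0.887 and that between region means 1.5. For KO minus WT in IgG-RIP, the values were 0.745 within and 0.712 between, so probes of 1 region differed as much as regions did.

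Probes for opposite strands that overlapped by at least 30 bases formed 1693 pairs. Of the pairs with a signal on either strand, 56.3% in WT input to 62.6% in KO AGO2-RIP had it on both. In 228 pairs detected on all arrays, IgG-RIP minus input had the same sign on both strands in 198 pairs in WT and 196 in KO (Pearson r of 0.848 and 0.819 across pairs, which share bases and arrays). Levels still differed between the strands, by a median of 0.92 and by at least 1 in 106 pairs.

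In 9 comparisons, the correlation of intergenic probes with their closest gene symbol probe was 0.124 to 0.526 within 10 kb and 0.0217 to 0.106 at 10 kb or more. Across 885 intergenic probes within 10 kb of a measured gene symbol probe, Pearson r for KO minus WT in input was 0.526, and across 870 at 10 kb or more it was 0.0984. For AGO2-RIP minus input in WT the values were 0.473 (837 probes) and 0.0269 (828). For IgG-RIP minus input in WT they were 0.313 (693) and 0.0475 (665). The lowest value within 10 kb was that of KO minus WT in IgG-RIP, 0.124 (1003), with 0.0576 (1088) at 10 kb or more. These correlations are across probes that share arrays and, in part, neighbours, and are given as a description.

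A list of 23 long non-coding RNAs with names, of which 19 are on the arrays, was read in the same comparisons. In AGO2-RIP over IgG-RIP in WT, 14 were measured, 1 at least 2-fold higher and 4 lower, with a median of -0.41. The shares over all probes were 20.1% and 22.5%. In KO, 1 of 14 was higher and 1 lower, with a median of -0.09, where the shares were 10.8% and 10.9%. The higher one in both genotypes was Snhg6, a host gene of a small nucleolar RNA, at 2.40 in WT and 1.08 in KO. Airn, the antisense transcript of the imprinted Igf2r locus, read 0.56, 1.91 and 3.26 in WT and 0.98, 2.34 and 3.39 in KO, the same order as the probes near Malat1. Gas5, a host of small nucleolar RNAs that is degraded upon translation, read 4.47, 2.61 and 2.82 in WT and 3.01, 2.59 and 2.18 in KO, with input highest in both. In IgG-RIP over input in WT, 11 were measured, with 3 higher and 3 lower and a median of 0.74. The shares over all probes were 17.9% and 37.5%. In KO, 4 of 11 were higher and 1 lower, with a median of -0.14, where the shares were 17.0% and 29.3%. The median of the list was thus below 0 in KO, unlike that of the intergenic probes.

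Near inflammation and growth genes the array held few detected intergenic probes. Within 50 kb of Ptgs2, Il6, Tnfaip3, Cebpb, Tnf and Ccl3 there were 0. Near Cdkn1a, Myc and Ddit4 there were 12, 3 and 4, none above background on all 6 arrays. Near Pvt1, the transcript next to Myc, 4 of 26 were, and near Irf1 1 of 16. That last probe, in chr11:53574182-53574644 (reverse), read 3.22, 4.18 and 5.40 in WT and 3.23, 4.79 and 5.02 in KO, so it was higher in both precipitates than in input.

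The largest number of probes in a region was 20, in 31 regions. Of the first 3 of these by name, chr10:126818382-126856582 had 11 probes above background on all 6 arrays. These 11 were higher in IgG-RIP than in input in WT, by a median of 2.59, and 10 of them in KO, by a median of 2. All 11 were below IgG-RIP in AGO2-RIP in WT, by a median of -1.48. In chr10:60473030-60535340 and chr10:94900849-94928059, 1 and 2 probes were detected on all arrays and 14 of 20 on none.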

How the data were processed

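RNA of 6 groups, input, AGO2-RIP and IgG-RIP of Dicer WT and Dicer KO macrophages, was measured on 1 single-colour Agilent array each. The intensity values used (gProcessedSignal) were deposited as scanner output and are background-subtracted by Feature Extraction 10.7.3.1, per the file headers. No log2 ratio of the authors was used. From them, log2 intensity minus the 75th percentile of the non-control spots of the array was computed, probes in several spots were averaged, and a probe was taken as above background by the software's own flag. Probes on X and Y were left out of the intergenic and gene symbol sets. They were kept in the limma fit and in the shares over all probes.

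Differences between 2 arrays are given for probes above background on both. With 1 array in a group no fraction within a genotype has a test. limma 3.58.1 (lmFit and eBayes, R 4.3.3) was fitted with fraction and genotype as terms to 26868 probes above background on at least 2 arrays, with Benjamini-Hochberg adjustment over all of them and a threshold of 0.05. It has 2 residual degrees of freedom, and its p-values measure the spread between these arrays, which may be technical. The fit was tested on simulated data. Python 3.11.15 with pandas 2.3.3, scipy 1.17.1 and matplotlib 3.10.9 was used for the rest.

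The members, gene lists and tests were chosen with earlier results of these data known. Named regions are the 6 brightest, the 5 highest and 5 lowest of each ratio among probes at least 2-fold changed the same way in both genotypes, those 2-fold different between genotypes in all 3 fractions, the 5 highest and lowest in dependence on Dicer, those within 50 kb of 13 landmark genes, and 3 regions with the most probes, with 1 probe for a region. Alternatives were other scalings, normexp background correction, other filters, 1 probe for a region, probes away from gene symbols, named non-coding probes as comparison, and leaving out each array.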

Additional observations from a re-analysis of the deposited data

Results flagged for a closer look

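Of the 10 regions named for the highest and lowest WT minus KO difference of the AGO2-RIP to IgG-RIP ratio, 9 had ratios of opposite sign in the 2 genotypes. The difference was not tested for any of them, since each value rests on 4 single arrays. On the higher side, chr10:93774693-93893616 (forward) had 0.70 in WT and -3.31 in KO, a difference of 4.0. The region chr12:113434415-113453161 (forward) had 2.43 and -1.51, a difference of 3.94, and there IgG-RIP read 0.93 in WT and 4.36 in KO. Beside Zfp983, a zinc finger gene, chr17:21785442-21801542 (reverse) had 1.87 and -1.95, a difference of 3.83, while the Zfp983 probe had -1.02 and -0.15. Near Jmy, a gene of actin assembly, chr13:94182877-94203935 (reverse) had 1.98 and -1.34, a difference of 3.32.

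On the lower side, the difference was -6.05 for chr8:72076364-72077503 (reverse), with -4.36 in WT and 1.69 in KO. It was -5.55 for chr6:127591179-127619145 (forward), with -3.28 and 2.27, and -5.46 for chr3:95443225-95444967 (forward), with -2.82 and 2.64. For chr11:97505439-97522274 (forward) it was -5.39, with -4.90 and 0.49. Next to Btg1, an antiproliferative gene, chr10:96082444-96096696 (reverse) had -4.36 in WT and 0.26 in KO, a difference of -4.62, and the Btg1 probe had -2.92 and -0.99.

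The median over intergenic probes also had opposite signs in some pairs of comparisons, and these differences were not tested. KO minus WT was 0.18 for the AGO2 and -0.12 for the IgG precipitate, and AGO2-RIP minus input was -0.06 in WT and 0.07 in KO. These opposite signs were lost under some other scalings. With array median scaling, KO minus WT was -0.04 in the AGO2 and 0 in the IgG precipitate, and AGO2-RIP minus input was -0.36 in WT and -0.47 in KO. AGO2-RIP minus input was 0.31 and 0.63 with the 75th percentile of probes detected on all arrays, and -0.07 and -0.02 with normexp.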

How the results depend on the processing

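The gap between the intergenic and gene symbol medians came near 0 with no filter on dim probes and with named non-coding probes as the comparison. Without the filter it was -0.07 for AGO2-RIP over IgG-RIP in WT, 0.05 for AGO2-RIP over input in KO, 0.02 and 0.06 for IgG-RIP over input in WT and KO, 0.04 for KO minus WT in AGO2-RIP and -0.07 for dependence on Dicer over IgG-RIP. Against named non-coding probes it was 0.08 for AGO2-RIP over input in KO, 0.21 and 0 for IgG-RIP over input in WT and KO and 0 for KO minus WT in AGO2-RIP, and it changed sign for AGO2-RIP over IgG-RIP in WT (0.04) and for dependence (0.01). With normexp it was 0.52 for IgG-RIP over input in WT. The intergenic median of IgG-RIP over input in WT also changed sign, to -0.34 with array median scaling and -0.07 without the filter. With array median scaling the medians of IgG-RIP over input in KO (-0.24), AGO2-RIP over input in KO (-0.47) and KO minus WT in AGO2-RIP (-0.04) changed sign too, and with the 75th percentile of probes detected on all arrays that of AGO2-RIP over input in WT (0.31). The cause was not tested.

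Counts of limma calls moved more. For AGO2-RIP over IgG-RIP, 17 intergenic probes were called higher with normexp, 65 with probes above background on all arrays and 52 with a mean-variance trend, and 11 and 2 lower with the last pair. For AGO2-RIP over input, calls higher were 0 with quantile normalization and with no filter, 151 with 1 probe for a region and 547 with a trend. Calls lower were 201 with array median scaling, 51 with the 75th percentile of probes detected on all arrays, 0 with quantile normalization and with no filter, 357 with normexp, 384 with probes above background on all arrays, 57 with 1 probe for a region and 313 with a trend. For IgG-RIP over input, calls higher were 1994 with the 75th percentile of detected probes, 817 with quantile normalization, 837 with normexp, 629 with probes on all arrays and 588 with 1 probe for a region, and calls lower were 761 with array median scaling, 165, 192 and 138 under the first, second and last of these. Leaving out each array gave 0 to 893 higher and 0 to 343 lower for AGO2-RIP over input, and 0 to 1615 and 0 to 599 for IgG-RIP over input.

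The share above background with 1 probe for a region was 42.1%, 57.7% and 60.3% in the WT fractions and 47.9%, 62.9% and 58.6% in KO, and away from gene symbol probes 21.3%, 31.8%, 34.7%, 25.2%, 37% and 33.6%. Leaving out probes with shared runs was chosen after seeing the data. Names beginning with lincRNA could not be tried, as there were 0. The limma fit compares fractions within each genotype, and no block by replicate number could be added, since the labels give none and each group has 1 array. Regions detected on part of the arrays have only a bound, so the number of arrays and signal near background limit all values.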
